A study of Homo sapiens with 20 samples.

Results

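The m6A regions of chromosome 20 were all regions of the authors' merged peak list that lie on that chromosome, 1402 of 43676 regions in all. m6A, N6-methyladenosine, is a methylated form of adenosine in RNA. It was mapped by methylated RNA immunoprecipitation sequencing (MeRIP-seq), in which RNA fragments are pulled down with an antibody against m6A and peaks are called over the input RNA of the same sample. T24 is a human bladder cancer cell line sensitive to cisplatin, a drug that crosslinks DNA. T24R2 is its cisplatin-resistant derivative, obtained by serial exposure of T24 to the drug and kept in medium with cisplatin. Both lines are labelled wild type and day 3, with 5 immunoprecipitated (IP) and 5 input libraries each, 20 samples in total. The 10 IP peak lists were analysed here, and the inputs entered only through the authors' peak calling. The comparison is between 2 cell lines, so resistance cannot be told apart from any other difference between them, including the cisplatin in the T24R2 medium. The labels do not say that the 5 libraries of a line came from separate cultures, so the tests measure the spread between libraries only.

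m6A is laid down on nuclear RNA by a methyltransferase complex built around METTL3 and METTL14, mostly at adenosines within a short consensus, and is removed by the demethylases FTO and ALKBH5. Reader proteins bind it and change the splicing, translation or decay of the transcript. In most mRNAs it is enriched in long exons and near the stop codon. Chromosome 20 carries YTHDF1, a cytoplasmic reader, and several genes studied in cancer, among them AURKA (a mitotic kinase), SRC (a tyrosine kinase), SNAI1 (a repressor of epithelial genes), SALL4 (a stem-cell transcription factor) and ZNF217 (a transcription factor amplified in tumours).

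A library was taken to have a region when at least 1 bp of it was covered by one of the library's peaks. A region was called T24-biased when at least 4 more T24 than T24R2 libraries had it, and T24R2-biased in the reverse case. With 5 libraries per line these are the patterns 5 against 0, 5 against 1 and 4 against 0, whose two-sided Fisher's exact p is 0.00794, 0.0476 and 0.0476 before adjustment. After Benjamini-Hochberg adjustment over all 43676 regions, the lowest p was 0.195 and 0 regions passed, so the biased regions are a ranking by presence and not significant calls. The chromosome and its regions were selected on these same calls, so the counts of biased regions are given as descriptions. A peak depends on both the amount of a transcript and the share of it that is methylated, and in lists of peaks these cannot be told apart.

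Sequences near the summits of some of the regions named further on are shown first. Each is the sense strand of the hg38 reference, within a single annotated exon, 61 bases for coding exons and 29 for untranslated regions (UTRs), and the letters GGAC, a frequent core of the m6A consensus, are in capitals. A window was centred on the GGAC nearest to the strongest summit, up to 50 bases away, or on the summit where there was none. The GGAC of the TMEM74B and SALL4 windows lay 41 and 50 bases from the strongest summit, so these windows do not contain it. The first set was called in all 5 T24 libraries and 0 T24R2 libraries.

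TMEM74B coding sequence, chr20:1181135-1181195, minus strand: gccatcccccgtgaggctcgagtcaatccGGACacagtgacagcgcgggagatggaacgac
SALL4 coding sequence, chr20:51784504-51784564, minus strand: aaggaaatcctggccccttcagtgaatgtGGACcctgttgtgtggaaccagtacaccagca
SLC17A9 3′UTR, chr20:62967545-62967573, plus strand: ccaGGACacaggGGACtcagtgtgtggga

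The second set was called in all 5 T24R2 libraries and 0 T24 libraries. STK35 is shown because the searched letters were not found within 50 bases of its summit.

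APCDD1L coding sequence, chr20:58467150-58467210, minus strand: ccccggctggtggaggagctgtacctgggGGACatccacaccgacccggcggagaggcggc
SPATA25 coding sequence, chr20:45886943-45887003, minus strand: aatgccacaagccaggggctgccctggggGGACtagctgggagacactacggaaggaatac
STK35 coding sequence, chr20:2103045-2103105, plus strand: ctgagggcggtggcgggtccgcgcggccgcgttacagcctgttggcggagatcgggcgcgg
C20orf204 3′UTR, chr20:64039257-64039285, plus strand: ctgctccactttGGACcggggccgggggt

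The third set comes from regions that all 10 libraries had and whose fold enrichment differed between the lines in the test described further on.

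SMOX coding sequence, chr20:4182249-4182309, plus strand: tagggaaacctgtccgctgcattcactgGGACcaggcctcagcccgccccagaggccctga
JAG1 coding sequence, chr20:10639675-10639735, minus strand: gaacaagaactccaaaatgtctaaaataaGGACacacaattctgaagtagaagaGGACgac
NCOA5 coding sequence, chr20:46070361-46070421, minus strand: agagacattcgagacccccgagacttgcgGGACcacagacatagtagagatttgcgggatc

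Summits of the libraries lay within 113 bp in each of these regions except TMEM74B, APCDD1L and STK35. The 5 T24R2 summits in SPATA25 fell within 27 bp and the 10 summits in NCOA5 within 52 bp. The 5 in TMEM74B were spread over 301 bp, the 5 in APCDD1L over 438 bp and the 5 in STK35 over 497 bp. Those regions therefore hold more than 1 summit position.

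In exonic regions of chromosome 20, GGAC was found on the sense strand within 50 nt on each side of the strongest summit in 426 of 892 regions (47.8%), against 46.2% of the 28630 exonic regions of the genome in windows of the same length. It was present in 28 of the 41 exonic T24-biased regions (68.3%) and in 22 of the 42 exonic T24R2-biased regions (52.4%), against 153 of the 273 exonic regions of the chromosome called in all 10 libraries (56.0%). Read on the opposite strand of these windows it was found in 10 of the 41 (24.4%) and in 19 of the 42 (45.2%), against 29.5% of all exonic regions of the chromosome. The T24R2-biased windows of chromosome 20 therefore held the letters on both strands at similar shares. Over the genome, T24-biased exonic windows had 51.7% sense and 24.5% antisense, and T24R2-biased ones 47.7% and 29.5%.

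Every library had 310 of the 1402 regions (22.1%), and 381 (27.2%) were found in 1 library each. There were 70 T24-biased regions, of which 34 were 5 against 0, 12 were 5 against 1 and 24 were 4 against 0. There were 88 T24R2-biased regions, of which 43 were 5 against 0, 22 were 5 against 1 and 23 were 4 against 0. The background over all regions was 2.09% T24-biased and 7.11% T24R2-biased, and 1.05% and 3.02% for the pattern 5 against 0 in T24 and T24R2. On chromosome 20, 4.99% of the regions were T24-biased, the highest share of 23 chromosomes, and 6.28% were T24R2-biased, rank 19. The next T24-biased share was 3.35%, on chromosome 13. T24-biased regions made up 44.3% of the biased regions of chromosome 20 and 21.9% of those elsewhere. Just outside the rule, 39 regions were called in 3 more T24 libraries and 70 in 3 more T24R2 libraries. The median fold enrichment was 6.55 at a T24 difference of 4 libraries and 6.62 at a difference of 3. For T24R2 the medians were 5.97 and 5.81.

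**Figure D1:**
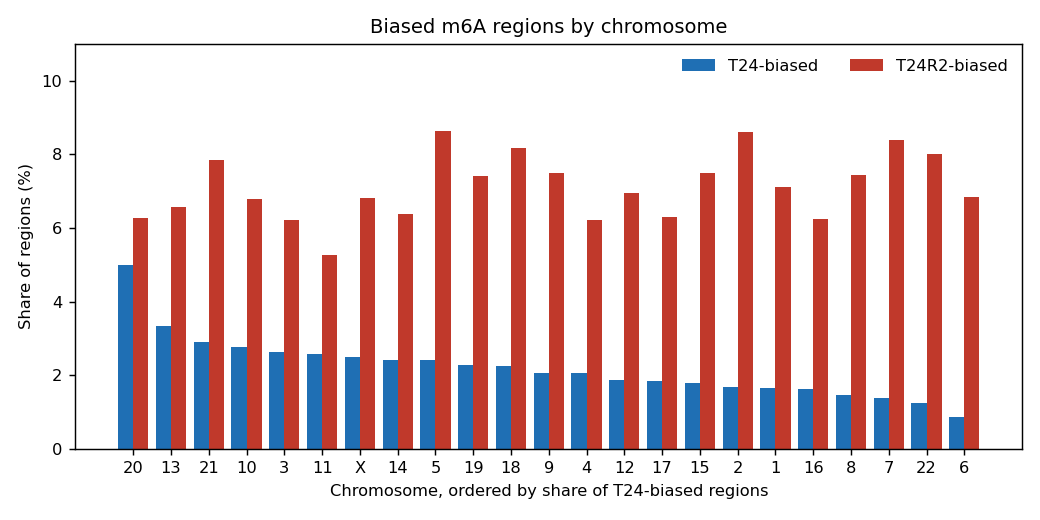
Share of regions (%) that were T24-biased (blue) or T24R2-biased (red) on each chromosome, ordered by the T24-biased share. Chromosome 20 has the highest blue bar, 4.99%, and a red bar of 6.28%.

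The number of peaks per list bears on the balance between the lines. Lists held 17203 to 22901 peaks in T24 and 22671 to 33120 in T24R2. When only the strongest 17203 peaks of each list were kept, chromosome 20 had 78 T24-biased and 37 T24R2-biased regions. Of these, 54 were among the 70 and 33 among the 88. T24-biased regions then made up 67.8% of the biased regions of chromosome 20 and 45.4% elsewhere, so the line with more biased regions on this chromosome changed with the peak number, while the T24-biased share stayed above that elsewhere. Leaving out T24R2 replicate 5, the list with the most peaks, also turned the balance, to 68 T24-biased and 66 T24R2-biased regions (50.7% T24-biased, against 29.8% elsewhere). With a library left out, the lines' fractions of libraries with a region had to differ by at least 4 of 5. A T24R2-biased region then had to be in every remaining T24R2 library, while 4 T24 libraries could suffice for a T24-biased one.

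The T24 lists held 703, 619, 768, 797 and 750 peaks on chromosome 20 in replicates 1 to 5, and the T24R2 lists held 776, 709, 727, 778 and 1015. These numbers overlapped between the lines. The share of a library's peaks that lay on chromosome 20 was 3.48%, 3.60%, 3.61%, 3.48% and 3.63% in T24 (3.56% ± 0.0737, SD, n = 5) and 3.24%, 3.13%, 3.05%, 3.04% and 3.06% in T24R2 (3.10% ± 0.0827, SD, n = 5). Every T24 share was above every T24R2 share, a pattern shown by 4 of 23 chromosomes, with the reverse on another 4. The median fold enrichment of the chromosome's peaks over input averaged 6.72 ± 0.306 over the T24 and 6.70 ± 0.478 over the T24R2 libraries (SD, n = 5 for both).

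**Figure D2:**
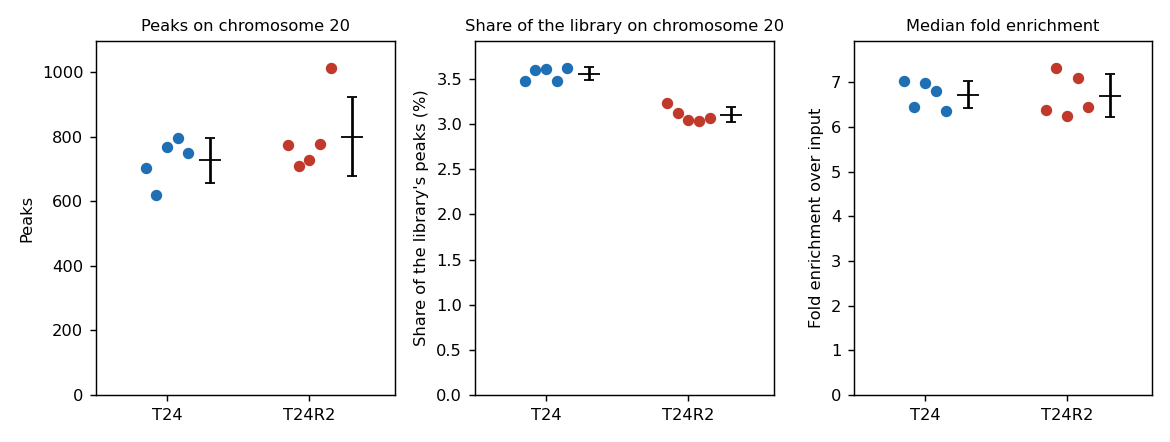
Peaks on chromosome 20, their share of each library's peaks (%) and their median fold enrichment over input, with 1 point per library and the mean ± SD of the 5 libraries of each line beside it. The shares separate the lines (3.48 to 3.63% in T24, 3.04 to 3.24% in T24R2), and the median fold enrichments overlap.

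Exonic regions made up 58.6% of the T24-biased and 47.7% of the T24R2-biased regions, against 88.1% of the regions called in all 10 and 63.6% of all regions of the chromosome. Among the 310 regions called in all 10, 141 had their summits in coding sequence, 100 in 3′UTRs and 7 between genes. Among the 70 T24-biased regions, 15 were in coding sequence, 9 in 3′UTRs, 6 in 5′UTRs, 11 in noncoding exons, 17 in introns and 12 between genes. Among the 88 T24R2-biased regions, 12 were in coding sequence, 19 in 3′UTRs, 2 in 5′UTRs, 9 in noncoding exons, 25 in introns and 21 between genes. The median width was 403 bp for T24-biased, 402 bp for T24R2-biased and 726 bp for regions in all 10. The median within-list percentile of −log10 q, the strength of a peak against the other peaks of its list, was 47.9 for T24-biased and 41.1 for T24R2-biased regions in the line that had them, against 77.0 for regions in all 10.

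Along the chromosome, the 158 biased regions fell into 48 runs of one direction. The longest run was 23 T24R2-biased regions over 11.4 Mb of the long arm, and the next was 11 T24R2-biased regions over 2.30 Mb near the end of the short arm. In bins of 5 Mb, the bin from 40 to 45 Mb had 0 T24-biased and 11 T24R2-biased of 93 regions, and the bin from 45 to 50 Mb had 1 and 10 of 131. The next bin, from 50 to 55 Mb, had 9 T24-biased and 3 T24R2-biased of 92 regions. The bin from 5 to 10 Mb had 6 T24-biased and 0 T24R2-biased of 49. The densest bin, from 60 Mb to the end, had 19 of each among 291 regions.

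**Figure D3:**
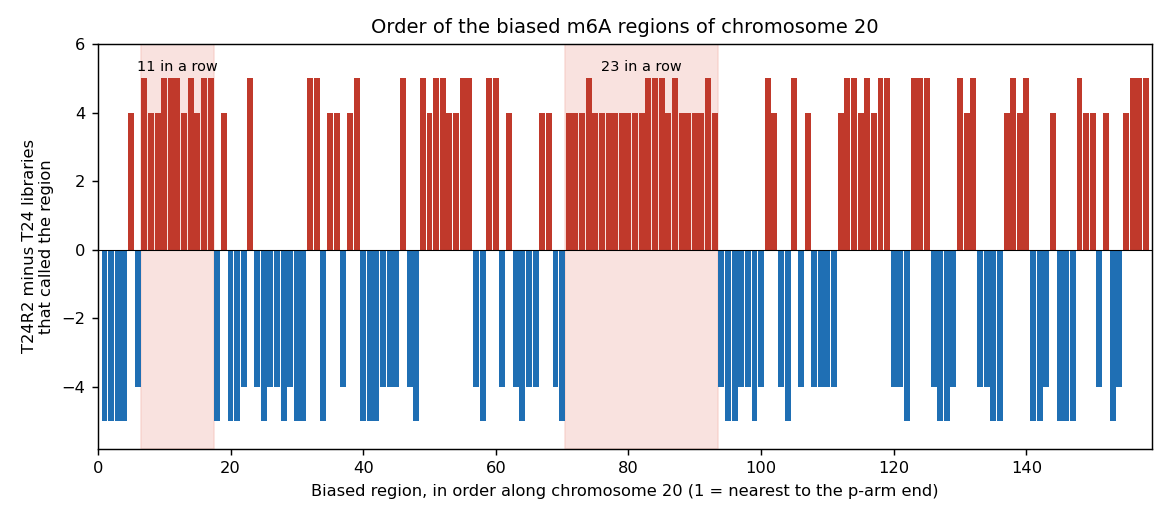
The 158 biased regions in order along chromosome 20, from the short-arm end, with the number of T24R2 minus T24 libraries that called each region. Red bars are T24R2-biased and blue bars T24-biased regions. Shading marks the runs of 11 and 23 T24R2-biased regions in a row.

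Biased regions were assigned to 83 genes, of which 36 had the T24 direction and 47 the T24R2 direction. Between neighbours among these genes, 35 of 82 pairs had opposite directions. SMOX (spermine oxidase), CDH4 (a cadherin) and DIDO1 (a chromatin reader) had regions of both directions. A gene's direction was the sign of the summed library difference of its biased regions. Blocks of at least 3 genes of one direction, consecutive among these 83, numbered 8, 5 of T24 with 16 genes and 3 of T24R2 with 26 genes. Genes without a biased region were passed over, so a block is not an unbroken stretch of genes. The span of the longest T24R2 block, of 14 genes, held 66 genes with a region. That of the second, of 8 genes, held 34, and that of the longest T24 block, of 4 genes, held 21. By definition no gene of the other direction lies within a block. The low counts of opposite biased regions in the spans given below follow largely from this rule and are not separate observations. Of the 36 T24 genes, 14 had no region at all in T24R2, and of the 47 T24R2 genes, 15 had none in T24. Another exonic region called in all 10 libraries was present in 10 T24 and 19 T24R2 genes, so the transcripts of these genes were detected in both lines by the same assay.

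The longest T24R2 block held 14 genes between 38.5 and 49.9 Mb: RALGAPB, SRSF6, TOX2, JPH2, ENSG00000287570, OSER1, PABPC1L, WFDC10B, SPATA25, ZNF335, NCOA3, STAU1, ZNFX1 and SLC9A8. Its span contained 227 regions, of which 21 were T24R2-biased, 0 T24-biased and 55 called in all 10. More T24R2 than T24 libraries had 133 of the 227 regions, and fewer had 28. The mean number of libraries with a region was 2.92 in T24R2 and 1.96 in T24. These values include the biased regions that defined the block. Over the whole chromosome a T24R2 library also had more regions, on average 741 of the 1402, against 647 in T24. With equal peak numbers 7 of the 21 regions stayed T24R2-biased, the longest T24R2 block fell to 7 genes, and the longest T24 block rose to 7. Without T24R2 replicate 5, which had the most peaks, the longest T24R2 block was 9 genes.

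JPH2 (junctophilin 2, which links surface and internal membranes of muscle cells) had 5 T24R2-biased regions in that block, and 2 more of its 11 regions were called in all 10 libraries. Its coding region at chr20:44159640-44160558 had a fold enrichment of 5.62, 8.34, 9.52, 14.6 and 12.5 in T24R2 replicates 1 to 5 and was called in T24 replicate 1 alone, at 8.03. The single T24 value lay inside the T24R2 range, so the lines differed there in the number of libraries with a peak. Of the 5 T24R2-biased JPH2 regions, only this coding region stayed T24R2-biased at equal peak numbers.

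RNA-binding and RNA-processing genes stood in the same block. STAU1 binds double-stranded RNA and triggers mRNA decay, SRSF6 is a splicing factor, and PABPC1L is a poly(A)-binding protein. The STAU1 region was intronic, called in 5 T24R2 libraries and 1 T24 library, and 2 other STAU1 regions were called in all 10. A 5′UTR region of STAU1 leaned the other way, with 5 T24 and 2 T24R2 libraries, short of the rule for bias. The SRSF6 region, in a 3′UTR, was called in T24R2 replicates 2 to 5 at 3.32, 3.43, 1.87 and 3.94, and in 0 T24 libraries. SRSF6 had no region in any T24 library. At equal peak numbers the intronic PABPC1L region stayed T24R2-biased, and the STAU1 and SRSF6 regions did not.

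NCOA3, a coactivator of nuclear receptors, had a coding region (chr20:47635898-47636168) at 3.36, 3.98, 2.7, 4.94 and 4.46 in T24R2 and at 3.67 in T24 replicate 4. OSER1, a gene induced by oxidative stress, had one at chr20:44196757-44197775 that was called in 5 T24R2 libraries and in T24 replicate 3. SPATA25, named for its expression in testis, had a single region, which was called in the 5 T24R2 libraries at 9.53, 7.53, 6.40, 8.55 and 8.12 and in 0 T24 libraries. ZNF335, a zinc-finger transcription regulator, had a single region as well, called in T24R2 replicates 2 to 5. NCOA3 therefore differed by 4 libraries at a low fold enrichment, and SPATA25 and ZNF335 were not listed at all in T24.

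The second T24R2 block lay at 1.63 to 4.02 Mb with 8 genes: SIRPG and SIRPG-AS1, the pseudogenes SIRPB3P and ENSG00000234282, STK35, ENSG00000277287, SPEF1 and RNF24. SIRPG belongs to the signal regulatory proteins, a family of immune receptors of similar sequence whose genes and pseudogenes are neighbours here, so the assignment of reads between the copies is uncertain. The span had 78 regions, of which 11 were T24R2-biased, 0 T24-biased and 22 called in all 10. Of the 11, 5 were kept at equal peak numbers. In STK35, a serine/threonine kinase, the coding region had a fold enrichment of 8.88, 8.41, 9.07, 4.86 and 8.28 in T24R2 and was called in 0 T24 libraries, while 2 other STK35 regions were called in all 10.

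The third T24R2 block held LIME1, UCKL1, C20orf204 and PCMTD2 near the end of the long arm. LIME1 is an adaptor of lymphocyte signalling, UCKL1 a uridine kinase-like protein and PCMTD2 a methyltransferase-domain protein. The span had 43 regions, of which 4 were T24R2-biased and 10 called in all 10, and more T24 than T24R2 libraries had 2 of the 43. In UCKL1 an intronic region of 1788 bp was called in all 5 T24R2 libraries and in 0 T24 libraries.

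The longest T24 block followed the longest T24R2 block directly, at 49.98 to 51.8 Mb, with SNAI1, RIPOR3, NFATC2 and SALL4. Its span had 57 regions, of which 7 were T24-biased, 0 T24R2-biased and 10 called in all 10. All 7 stayed T24-biased at equal peak numbers. SNAI1 encodes Snail, a repressor of E-cadherin. Its 3′UTR region (chr20:49988333-49988514) had a fold enrichment of 6.39, 8.13, 9.50 and 10.2 in T24 replicates 1 to 4 and was called neither in T24 replicate 5 nor in T24R2.

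SALL4 had 2 T24-biased coding regions and no region called in all 10. The region at chr20:51784274-51784736 was at 6.77, 6.91, 9.91, 5.03 and 10.1 in T24 and was called in 0 T24R2 libraries. The region at chr20:51791801-51792167 was at 7.04, 11.3, 13.0, 19.5 and 7.17 in T24 and at 4.61 in T24R2 replicate 3. The single T24R2 value was below all T24 values. NFATC2, a calcium-regulated transcription factor, had a T24-biased intronic region, while its 3′UTR region was shared by all 10 libraries. RIPOR3 had a 3′UTR and a coding region that were each called in all 5 T24 libraries and in 0 T24R2 libraries.

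The other T24 blocks had 3 genes each. BMP2 (a bone morphogenetic protein), PLCB1 and PLCB4 (phospholipases C beta) formed the block of greatest span, 2.74 Mb, with 5 T24-biased and 0 T24R2-biased of 20 regions. A 5′UTR region of BMP2 was at 5.55, 6.89, 11.3, 7.90 and 6.62 in T24 and a 3′UTR region of PLCB1 at 5.38, 9.47, 5.48, 9.40 and 8.35, both in 0 T24R2 libraries. PLCB1 had no region in T24R2. The block of ACTL10 (an actin-like protein), ZNF341 (a zinc-finger transcription factor) and ENSG00000250917 had 4 T24-biased and 0 T24R2-biased regions, of which 1 was kept at equal peak numbers. The block of CDH4, CABLES2 (a cyclin-dependent kinase partner) and ENSG00000289634 had 6 T24-biased and 3 T24R2-biased regions. The block of NTSR1 (the neurotensin receptor), DIDO1 and SLC17A9 (a vesicular nucleotide transporter) had 5 T24-biased and 1 T24R2-biased of 53 regions.

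The regions called in every library of one line and in none of the other comprised 19 exonic regions of 16 genes for T24 and 17 of 17 genes for T24R2. They were ranked by the −log10 q percentile in the weakest of the 5 libraries, and the strongest region of each gene was kept. The strongest in T24 was the coding region of SLC52A3, a riboflavin transporter, with a lowest percentile of 73.3. Its fold enrichment was 17.3, 12.9, 7.18, 26.2 and 13.7. SLC52A3 had 2 more regions with the same pattern, in its 3′UTR and 5′UTR, and none in T24R2.

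The next T24 regions were in ADRA1D (an alpha-1 adrenergic receptor, fold enrichment 7.45 to 22.9), FLRT3 (a cell-adhesion protein, 10.6 to 13.8), DIDO1 (5.77 to 8.28) and TMEM74B (8.97 to 18.8, where an exon of PSMF1 overlaps). They were followed by SLC17A9 (4.41 to 15.2), RIN2 (4.58 to 10.9), NTSR1 (6.40 to 13.3), RIPOR3 (5.68 to 8.61) and SALL4. ADRA1D, FLRT3, TMEM74B and SLC17A9 had no region in T24R2. DIDO1 and RIN2 had 4 regions each that were called in all 10. All of these 10 regions stayed T24-biased at equal peak numbers, against 54 of all 70 T24-biased regions. The ranking favours this, since the ranking and the equal-peak setting both use −log10 q.

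The strongest T24R2 region was in a noncoding exon of the lncRNA ENSG00000276627 (chr20:60761439-60762750, lowest percentile 77.7), at 12.2, 24.6, 12.9, 16.8 and 14. This gene had no region in T24. The next was in a noncoding exon near the 3′ end of APCDD1L-DT, a lncRNA divergent from APCDD1L, at 10.7, 10.3, 15.1, 16.4 and 15.6, and the third was the coding region of APCDD1L, a paralogue of a Wnt inhibitor, at 10.4, 11.4, 7.49, 11.9 and 14. APCDD1L and APCDD1L-DT together carried 7 T24R2-biased regions and 0 T24-biased regions, and each had 2 further regions called in all 10.

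The remaining T24R2 regions were in SPATA25, PCMTD2 (5.88 to 8.47, where an exon of ENSG00000149656 overlaps), SRMS (a Src-related kinase, 6.79 to 8.92), STK35, ISM1 (isthmin, a secreted protein, 7.04 to 12.5), C20orf204 (6.24 to 13.4) and ZFP64 (a zinc-finger protein, 6.92 to 13.9). ISM1 had no region in T24. SRMS had 3 T24R2-biased regions, in its 3′UTR, coding sequence and an intron. All 10 T24R2 regions stayed T24R2-biased at equal peak numbers, against 33 of all 88 T24R2-biased regions. Their ranking by −log10 q favours this in the same way.

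**Figure D4:**
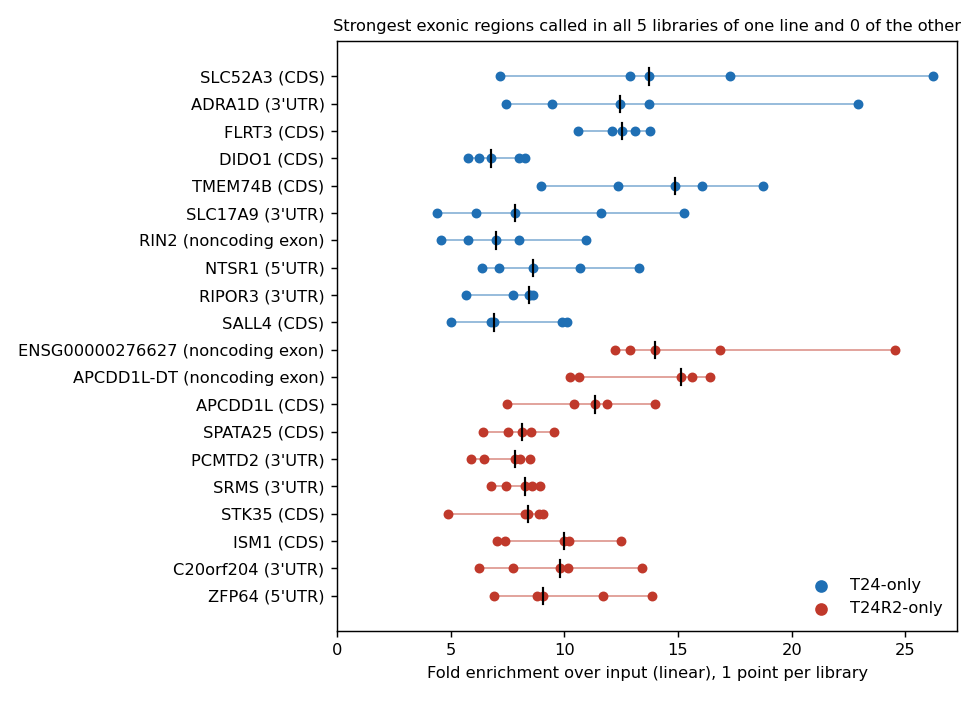
Fold enrichment over input in each of the 5 libraries (points) for the strongest exonic region of each of the 10 leading genes called only in T24 (blue) and only in T24R2 (red), with the median as a black tick. The highest values were 26.2 for SLC52A3 in T24 and 24.6 for ENSG00000276627 in T24R2.

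Several genes had more than 1 biased region. RIN2, a guanine nucleotide exchange factor for Rab5, had 6 T24-biased regions, 2 in coding sequence, 2 in noncoding exons and 2 in introns, with fold enrichments of 2.15 to 10.9. FAM182B, a lncRNA, had 4 T24R2-biased intronic regions. NKILA, a lncRNA that inhibits NF-kappaB signalling, had 3 T24-biased regions and PMEPA1, which overlaps it on the other strand and encodes an inhibitor of TGF-beta signalling, had 1. Since the lists carry no strand, peaks of NKILA and PMEPA1 cannot be told apart where they overlap. Overall 132 of the 1402 regions had summits in more than 1 gene.

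Genes grouped by function were read from fixed lists of chromosome 20 genes. The lists were drawn up with earlier results of these data known, so their counts are descriptions. The shares to set beside their counts are 4.99% T24-biased and 6.28% T24R2-biased over all regions of the chromosome. Over the genome they are 2.09% and 7.11%. Of 18 genes of the cell cycle and replication, 14 had a region and 5 a region in all 10 libraries, namely AURKA, TPX2 (a spindle assembly factor), MCM8 (a helicase), CENPB (a centromere protein) and FAM83D. The list had 0 T24-biased and 1 T24R2-biased of 32 regions, the latter in RAE1, an mRNA export and mitotic factor, which 5 T24R2 libraries and 1 T24 library had. These counts leave out a T24-only intronic region (chr20:63679380-63680106) that lies within RTEL1, a helicase on the list, but was assigned to the overlapping readthrough gene RTEL1-TNFRSF6B. UBE2C, PCNA, CSE1L and SAMHD1 had no region.

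Of 31 chromatin and transcription genes, 25 had a region and 18 a region in all 10. Their 125 regions included 6 T24-biased ones, in SALL4, SNAI1, NFATC2, ZNF341 and DIDO1, and 3 T24R2-biased ones, in NCOA3, ZNF335 and DIDO1. ZNF217 had 4 regions, and all of them were called in all 10. The median difference in fold enrichment over the 42 shared regions of the list was 0.10 on the log2 scale (T24R2 minus T24), against 0.11 for all shared regions of chromosome 20 and 0.016 for those of the genome, and 1 region, in NCOA5, passed the test of the level described further on.

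Of 27 signalling genes, 26 had a region. Of their 94 regions 12 were T24-biased and 1 was T24R2-biased, against 4.99% and 6.28% of all regions of the chromosome. The T24-biased regions lay in RIN2, BMP2, PLCB1, PLCB4 and TNFRSF6B, a decoy receptor for Fas ligand whose region is shared with the readthrough gene RTEL1-TNFRSF6B, and the T24R2-biased region lay in STK35. The median difference over the 17 shared regions of this list was 0.30, with 14 of them higher in T24R2, and 1, in JAG1, passed the test of the level. Over all shared regions of the chromosome the median was 0.11, and 63.9% were higher in T24R2. RIN2 and the BMP2, PLCB1 and PLCB4 block held 11 of the 12 T24-biased regions.

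Of 9 genes of apoptosis and stress, 6 had a region, with 1 T24-biased region in HM13 (signal peptide peptidase) and 1 T24R2-biased region in PRNP (the prion protein). The PRNP region was weak, at 2.19, 2.87, 2.67, 4.16 and 3.79 in T24R2. BCL2L1, the gene of the apoptosis inhibitor Bcl-xL, had 2 regions in all 10 libraries and 0 biased regions. Of 22 genes of RNA processing and translation, 14 had a region, with 0 T24-biased and 4 T24R2-biased of 28 regions, in SRSF6, STAU1, PABPC1L and ESF1 (a ribosome assembly factor). YTHDF1 had 1 region called in all 10 and 0 biased regions. The median difference over shared regions was 0.32 for the 5 of the cell cycle list, 0.14 for the 5 of apoptosis and stress and 0.16 for the 9 of RNA processing, and none of these regions passed the test of the level.

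The level of m6A enrichment was compared in the 310 regions of chromosome 20 that all 10 libraries had. The log2 fold enrichment was tested by limma over all 9577 such regions of the genome, each library centred on its median, with Benjamini-Hochberg adjustment and a threshold of 0.05. Of the 310, 2 were higher and 3 lower in T24R2, against a background of 0.533% higher and 0.324% lower over all 9577. At an unadjusted p under 0.05 there were 41 (13.2%), 23 higher and 18 lower, against 14.1% over all. The groups of libraries did not overlap in 10 of the 310 (3.23%), against 4.10% over all. The median difference, T24R2 minus T24, was 0.11 on the log2 scale on chromosome 20 and 0.012 elsewhere. On −log10 q, also on a log2 scale, the medians were 0.038 and 0.016, for regions in at least 4 of 5 libraries of each line 0.062 and 0.0029, and without centring 0.20 and 0.11. The difference in fold enrichment was above 0 in 198 of the 310 regions (63.9%), against 51.2% elsewhere. The chromosome's median ranked second of 23, after chromosome 11, so the level in shared regions lay slightly toward T24R2 on the chromosome with the highest share of T24-biased regions.

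SMOX, spermine oxidase, which breaks down a polyamine and releases hydrogen peroxide, had a coding region (chr20:4182121-4182647) at 3.37, 3.69, 3.39, 5.24 and 3.06 in T24 and at 10.7, 12.8, 5.12, 11.3 and 9.29 in T24R2. The region was 2.39-fold higher in T24R2 (log2 difference 1.25, SE 0.261, limma adjusted p = 0.0199). T24R2 replicate 3 was the low library, and the groups did not overlap once libraries were centred. In the same gene an intronic region was called only in T24, at 11.2 to 17.5, and a 5′UTR region in 4 T24R2 libraries and 0 T24 libraries. SMOX therefore had regions that differed in opposite directions along its body.

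JAG1, a ligand of Notch receptors, had a coding region (chr20:10639315-10639978) at 2.97, 5.37, 3.72, 7.78 and 3.71 in T24 and at 11, 23.4, 9.96, 9.88 and 8.89 in T24R2. It was 2.48-fold higher in T24R2 (log2 difference 1.31, SE 0.307, limma adjusted p = 0.0380). Every T24R2 value was above every T24 value, and T24R2 replicate 2 stood apart at the top.

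CDH4, R-cadherin, had a 3′UTR region (chr20:61936627-61937457) at 19.9, 12.4, 18.1, 22.7 and 16.6 in T24 and at 6.21, 8.32, 5.53, 8.53 and 5.53 in T24R2. Its log2 difference was -1.49 (SE 0.235, limma adjusted p = 0.00263), a ratio of 0.356. The groups did not overlap. This was the smallest p of the chromosome's shared regions. The 10 summits of the 3′UTR region were spread over 565 bp, and the strongest had no GGAC within 50 bases. CDH4 also had 4 T24-biased regions, 1 coding and 3 intronic, and 2 T24R2-biased intronic regions.

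NCOA5, a nuclear receptor coregulator, had a coding region (chr20:46070212-46070623) at 9.28, 10.2, 16.3, 14.4 and 6.71 in T24 and at 5.66, 6.33, 4.63, 4.35 and 5.81 in T24R2 (log2 difference -1.13, SE 0.263, limma adjusted p = 0.0380). All T24 values were above all T24R2 values. A second coding region of NCOA5, at chr20:46068508-46068778, had a log2 difference of -1.25 and did not pass (limma adjusted p = 0.0576). APCDD1L-DT had a noncoding exon region next to its start at 9.71, 35.6, 15.3, 10.9 and 8.36 in T24 and at 7.18, 5.22, 4.46, 6.62 and 3.78 in T24R2 (log2 difference -1.47, SE 0.349, limma adjusted p = 0.0432). The groups did not overlap. The 5 T24R2-biased regions of the same lncRNA lay further along the gene and differed in the other direction.

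Leaving out single libraries moved these calls. The count of higher regions fell to 0 without T24 replicate 3 or T24R2 replicate 1, 2 or 4, and to 1 without T24 replicate 1 or T24R2 replicate 3. The count of lower regions fell to 1 without T24 replicate 2 or 3 or T24R2 replicate 1, 2, 3 or 4.

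**Figure D5:**
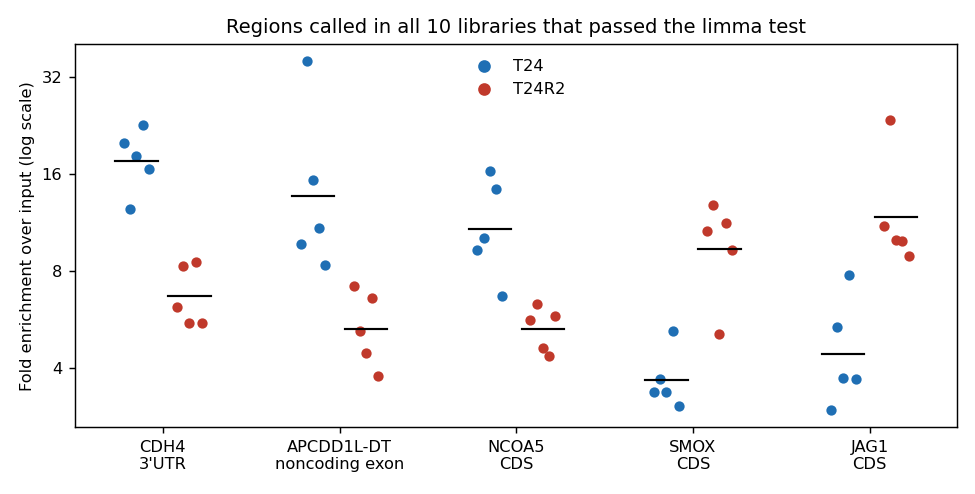
Fold enrichment over input, on a log scale, in each T24 (blue) and T24R2 (red) library for the 5 regions of chromosome 20 that passed the limma test, with the geometric mean as a black line. CDH4, APCDD1L-DT and NCOA5 are lower in T24R2, and SMOX and JAG1 are higher.

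Among the next regions by p, none of which passed, were higher values in T24R2 for coding regions of SLCO4A1 (an organic anion transporter), RIN2, DIDO1 and HELZ2, a noncoding exon of ENTPD6 and the 3′UTR of SIRPA (limma adjusted p = 0.107 to 0.159). The RIN2 coding region was at 13.1, 9.65, 14.8, 12.8 and 11.9 in T24 and at 15.9, 32.4, 19.0, 24.9 and 21.5 in T24R2. The groups did not overlap, and the limma adjusted p was 0.115. The 6 biased regions of RIN2 were all T24-biased. Lower values in T24R2 stood in the 3′UTRs of MYL9 (a myosin light chain), NFATC2 and TOX2 and in a coding region of OGFR (limma adjusted p = 0.0623 to 0.121). TOX2, a HMG-box transcription factor, had a T24R2-biased region at its start and this lower 3′UTR region at its end.

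Within the longest T24R2 block, the 55 shared regions had a median log2 difference of 0.047, with 32 higher and 23 lower in T24R2. In the block of SNAI1 to SALL4, the 10 shared regions had a median of 0.0090, with 5 on each side. Both medians were within 0.1 of 0, in blocks where the biased regions had opposite directions.

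The markers of the cell type were read from the same lists over all chromosomes. KRT7 and FOXA1, a keratin and a transcription factor of the urothelium, had exonic regions in all 5 libraries of both lines. GATA3, a luminal transcription factor, had one in 5 T24 and 0 T24R2 libraries. KRT18 had one in 0 T24 and 2 T24R2 libraries, and UPK1A in 1 T24 and 2 T24R2 libraries. PPARG regions were each found in at most 1 library of each line. Of 17 urothelial or epithelial markers, 11 had no exonic region, among them KRT5, KRT20, UPK2, TP63, EPCAM and CDH1. Of 4 mesenchymal markers, CDH2 and ZEB1 had a region in all 10 libraries, VIM in 5 T24 and 4 T24R2 libraries, and FN1 had none. A missing m6A region does not show that a gene is not expressed, so the lists leave the labelled cell type unchecked for those markers.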

How the data were processed

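MeRIP-seq libraries of T24 and T24R2 cells were grouped by line and type from the sample titles. Per the labels and methods, the authors aligned reads to hg38 with STAR 2.7.0 and GENCODE 39, kept uniquely mapped reads without duplicates with SAMtools 1.10, and called peaks of IP over input separately in each library with MACS2 3.0.0a6. The deposited lists give each peak's position and summit, a score derived from the q-value, a fold enrichment (ratio of IP over input), a −log10 p-value and a −log10 q-value. The lowest −log10 q was 2.00. Merging the 10 lists with bedtools gave the same 43676 regions as the merged list the authors deposited. They hold no read counts, so depth is unknown.

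Positions were checked against hg38: 0 chromosomes had a region past their end. Summits were assigned with GENCODE 44 (bedtools 2.31.1, pandas 2.3.3) with coding sequence first, then 3′UTRs, 5′UTRs and other exons, then introns, and intergenic sequence last. A region took the class and gene of most of its summits. Genes with a biased region were ordered by start for blocks. For a biased region the fold enrichment is that of the library's peak with the highest −log10 q in it. For the test, the highest fold enrichment in the region was used on the log2 scale without pseudocount (limma 3.58.1 with trend, R 4.3.3), and the script was tested on simulated data. The genes named were the listed genes with a biased region or a passing shared region, for each direction, the highest-ranked exonic region of each of 10 genes and the 3 longest blocks, and the 8 shared regions with the smallest p per direction. Genes with several biased regions were named after their values were seen. The members and lists were chosen with earlier results of these data known. Alternatives were other strength limits, equal peak numbers, other overlaps and differences, other scalings and leaving out each library. With a library left out, the rule for bias used the fraction of each line's libraries in place of their number. The sequences of some regions are not reported here.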

Additional observations from a re-analysis of the deposited data

Results flagged for a closer look

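Single libraries stood apart from the other 4 of their line in 3 of 24 groups of values tested by Dixon's ratio (critical value 0.71 for 5 libraries), where chance flags about 1 in 20. T24R2 replicate 5 had 1015 peaks on chromosome 20, and the next T24R2 library had 778. In the JAG1 coding region T24R2 replicate 2 had a fold enrichment of 23.4, and the next value was 11. In the first noncoding exon region of APCDD1L-DT, T24 replicate 2 had a fold enrichment of 35.6, and the next value was 15.3.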

How the results depend on the processing

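Of 178 values under alternatives, 126 stayed near the main value and 52 moved. The limits were 1.5 times for a count, the 95% confidence interval for a T24 share of biased regions and 1 SD otherwise. The line with more biased regions on chromosome 20 turned from T24R2 to T24 with equal peak numbers and without T24R2 replicate 5. With −log10 q of at least 10 there were 21 T24-biased and 48 T24R2-biased regions (7 and 17 in the pattern 5 against 0), a T24 share of biased regions of 30.4% on chromosome 20 and 19.3% elsewhere, and a difference in the chromosome's share of peaks of -0.339 percentage points, against -0.454 in the main setting. With a fold enrichment of at least 4 the T24 share elsewhere was 24%. With equal peak numbers there were 37 T24R2-biased regions (16 in the pattern 5 against 0), T24 shares of 67.8% and 45.4%, and longest blocks of 7 genes each. With peaks covering at least 50% of the region there were 36 T24-biased regions, 11 T24-only and 28 T24R2-only regions, and T24 shares of 27.5% and 13.9%. A difference of at least 3 libraries gave 109 and 158 biased regions. In genes with another exonic region in all 10 libraries, a choice made after seeing the data, there were 19 and 33 biased regions (8 and 14 in the pattern 5 against 0) and T24 shares of 36.5% and 19.1%. Leaving out single libraries gave T24 shares of 38.9% to 50.7% on chromosome 20 and 17.9% to 29.8% elsewhere and a longest T24R2 block of 9 to 13 genes, the lowest without T24R2 replicate 5. The count of shared regions was 0 to 2 higher and 1 to 4 lower without single libraries, 1 higher and 7 lower on −log10 q, and 4 higher for regions in at least 4 of 5 libraries of each line. With the replicate block it was 2 higher and 2 lower, and NCOA5 was lost (limma adjusted p = 0.0632). Libraries of the same number did not deviate together (correlations of -0.042 to 0.12), so the numbers were not taken as pairs. The cause of these shifts was not tested, except that fewer regions are tested under stricter limits.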
